A study of Oryza sativa with 12 samples.

Results

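Sucrose synthase, pyruvate decarboxylase and alcohol dehydrogenase act in series when plant roots run short of oxygen, and 8 rice loci that encode them were followed here in roots of a hybrid and its parents. The loci were chosen by name: the sucrose synthases SUS1 (Os03t0401300), SUS2 (Os06t0194900), SUS3 (Os07t0616800) and SUS4 (Os03t0340500), the pyruvate decarboxylases PDC1 (Os05t0469600) and PDC2 (Os03t0293500), and the alcohol dehydrogenases ADH1 (Os11t0210300) and ADH2 (Os11t0210500). Their rows were taken from a table of SNP calls by the locus part of the transcript identifier. By their identifiers, SUS1, SUS4 and PDC2 lie on chromosome 3, SUS2 on 6, SUS3 on 7, PDC1 on 5, and ADH1 and ADH2 on 11. Positions below are counted within the transcript. Of the 8 loci, 7 had at least 1 row, and together they held 95 of 249857 sites and 17 of 28182 transcripts. SUS3 had no row and is not described further.

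The genotypes were the hybrid Xieyou9308, its maternal line Xieqingzao B and its paternal line R9308, sampled as roots at the tillering and the heading stage. There were 12 samples, 2 roots for each genotype and stage, and the authors pooled the 2 roots before they called SNPs, so that 6 columns remained and no spread between replicates could be computed. In every group, per the study's methods, plants were first grown in the field and then on foam floating on a pool of nutrient solution. No drained or aerated group was compared, so a response to flooding was not measured. Intervals below cover counting error only, and PCR copies of a molecule count as separate reads.

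Sucrose synthase cleaves sucrose with UDP into UDP-glucose and fructose, which costs the cell less ATP than cleavage by invertase followed by phosphorylation. Pyruvate decarboxylase then turns the pyruvate of glycolysis into acetaldehyde, and alcohol dehydrogenase reduces acetaldehyde to ethanol and returns NAD+ to glycolysis. In rice and other grasses, genes of all 3 enzymes are known for higher expression under low oxygen. The enzymes are encoded by small gene families whose members are used at different stages and in different tissues.

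The table holds positions where a base differing from the Nipponbare reference was called in at least 1 column, and it gives the called base or bases, the supporting reads (the depth) and a quality score. A dash marks a column without a call. The total depth of a column lay between 9661512 and 13973160 reads, and levels and all ratios below are of the scaled depth, in reads at a site per 1000000 reads of that total (RPM). Only 19 of the 95 rows had a depth in all 6 columns. They covered 8 transcripts of 5 loci, SUS1, SUS2, PDC1, PDC2 and ADH1, and 15 distinct positions, since transcripts of a locus repeat the same bases at a constant offset. SUS4 and ADH2 had no such row and are described by single sites. The SUS2 rows show the repetition most clearly, with 31 rows at 14 distinct positions. Bases were matched only where more than 1 pair of rows shared an offset. By this matching, 49 rows over all members lay at positions listed under more than 1 transcript, and the 95 rows were at most 65 distinct positions. Single pairs that may be the same base, such as C1056G and C439G of ADH2, were left apart. Transcripts of 1 locus are therefore not independent of each other.

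A transcript's level was the mean depth of its sites with a call in all 6 columns, and it was called different when the ratio of scaled depth was 2 or more, or 0.5 or less. This call has no test behind it. In all, 16732 transcripts had such a site and a mean depth of at least 10 reads, and the share of them that was called is given beside each count of members. The hybrid heading column enters both the stage comparison of Xieyou9308 and its comparison with the parents, and the parental columns enter the parental ratio, the parental mean and the parental stage comparisons, so these results are not independent. Of the 3 loci listed as root markers, all had rows in all 6 columns, with a summed level of 220.1 to 506.7 RPM. Of the 4 loci listed as leaf markers, 3 had rows. Their highest site depth was 149.0 RPM in R9308 at tillering and between 0.555 and 4.70 in the other 5 columns. The part of these reads in the R9308 tillering values below was not tested.

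**Figure D1:**
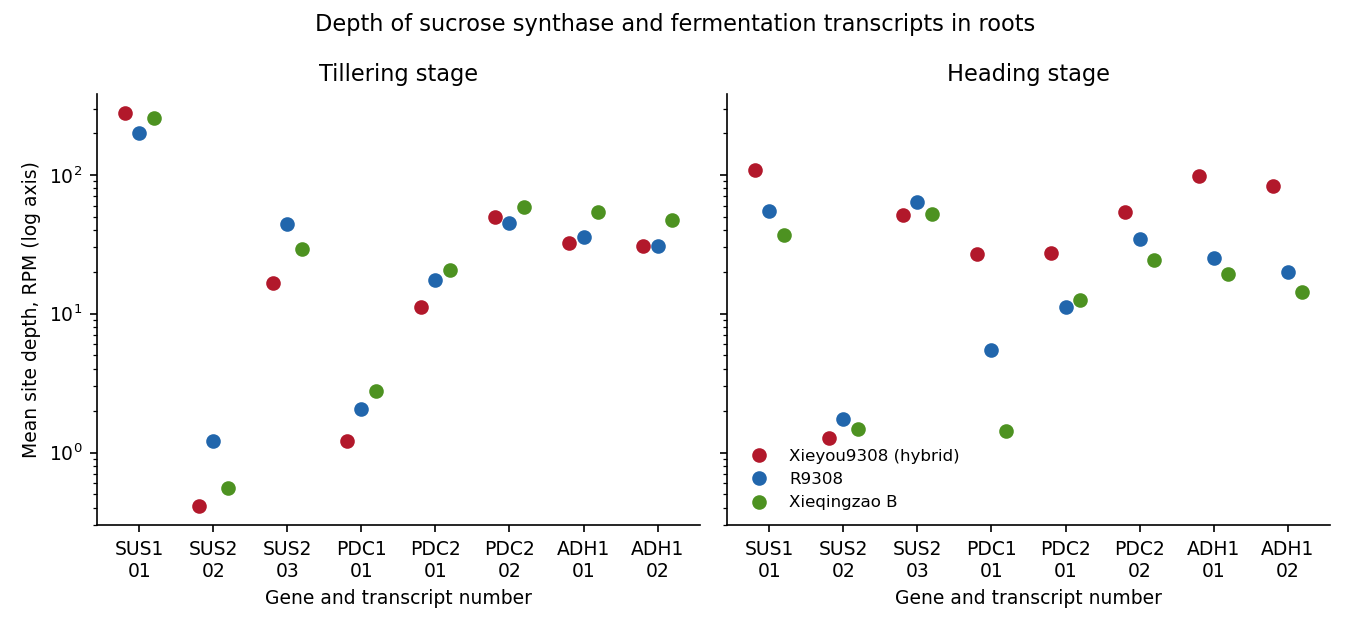
Mean site depth (RPM, reads per 1000000 of the column total, log axis) of the 8 transcripts with a call in all 6 columns, at tillering on the left and at heading on the right, with 1 point for each pooled genotype and no error bars because roots were pooled. At heading the hybrid point lies above both parents for SUS1, PDC1, PDC2 and ADH1 and below both for SUS2.

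SUS1 was deeply covered and lower at heading than at tillering in all 3 genotypes. It has 12 rows in 3 transcripts, and 1 of them, T1028C in transcript 01 (the Nipponbare base, the position counted from the transcript's start, and the base called), was called in every column with a quality score of 222. Its depth at tillering was 2689 reads in Xieyou9308, 2781 in R9308 and 2780 in Xieqingzao B. At heading the depths were 1069, 591 and 484 reads in the same order. The level fell by 1.35 on the log2 scale in Xieyou9308, by 1.86 in R9308 and by 2.79 in Xieqingzao B, which is a 2.55-fold, 3.64-fold and 6.93-fold lower depth at heading. At A22G and G42T, near the start of the same transcript, the hybrid was lower by less, with a stage ratio of 0.652 and 0.742, and R9308 had ratios of 0.364 and 0.284. The hybrid had the highest heading level of the 3, at 109.2 RPM against 54.7 in R9308 and 36.8 in Xieqingzao B. That is 2.39 times the parental mean at heading, compared with 1.22 times at tillering. At A22G and G42T the hybrid heading depth was 2.59 and 2.55 times the parental mean. Both of these lie 20 bases apart and can be read by the same fragments. Toward the 3′ end, at A2732G and T2733C, the depth at tillering was 35 and 30 reads in R9308 and 518 and 517 in Xieqingzao B, whereas both parents had nearly equal depth at T1028C. The levels of SUS1 in the 2 parents thus depended on the position read.

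In the mean over its sites SUS2 had more depth at heading in all 3 genotypes and was not above the parental mean in the hybrid. Of its 2 transcripts with a site called in all 6 columns, number 03 was the deeper, with a mean depth over 3 sites of 159.7 reads in Xieyou9308, 617.7 in R9308 and 320.3 in Xieqingzao B at the tillering stage. At heading it had 501.0, 685.0 and 684.0 reads. The hybrid was therefore lowest at tillering, 2.23-fold below the parental mean, and 1.13-fold below it at heading. The stage ratio was 3.10 in Xieyou9308, 1.43 in R9308 and 1.77 in Xieqingzao B. The 3 sites of that transcript differed in these ratios: in the hybrid the ratio ran from 0.987 at T648C to 4.42. At T648C, with 2 to 9 reads in the 6 columns, the parental ratios were below 1, at 0.575 and 0.276. At T2722C of transcript 01, where R9308 had no call, the hybrid went from 408 to 328 reads, a ratio of 0.793, and Xieqingzao B from 204 to 385, a ratio of 1.56. The stage ratio of SUS2 in the hybrid thus depended on the site. Transcript 02 was covered far more thinly, with 4.0 to 19.5 reads in the 6 columns, and its ratios rest on few reads. Its stage ratio was 3.08 in the hybrid, 1.44 in R9308 and 2.69 in Xieqingzao B, and R9308 exceeded Xieqingzao B 2.21-fold at tillering. The quality score was low at many of these sites, down to 3.52, and only 1 of the 5 SUS2 rows reached 20 in every column.

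SUS4 has 5 rows in 3 transcripts, with depths of 9 to 43 reads in the parents, and Xieyou9308 had no call at any of them at either stage. The quality score of R9308 was below 20 at all of its called SUS4 sites at both stages. The parents carried different bases at 2 of these sites at tillering and at 3 at heading. At the heading sites the R9308 share of the parental scaled depth lay between 41.1% and 54.9%, and at the tillering sites it was 53.0% and 54.5%. No allele reads of SUS4 were available for the hybrid.

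PDC1 was far deeper in the hybrid at heading than in any other column. Its single transcript has 5 rows, of which 3, A66C, A120G and T966A, were called in all 6 columns with quality scores from 49 to 231. At tillering their mean depth was 11.7 reads in Xieyou9308, 28.7 in R9308 and 30.0 in Xieqingzao B. At heading it was 261.3 reads in Xieyou9308, 59.7 in R9308 and 18.7 in Xieqingzao B. The hybrid was the highest of the 3 genotypes at heading at each site. Its low tillering mean rests on T966A, with 10 reads against 56 in R9308 and 36 in Xieqingzao B. At A66C and A120G R9308 was the lowest at tillering, as at A120G with 1.15 RPM against 1.24 in the hybrid. The heading level of the hybrid was 22.1 times its tillering level (log2 4.47), and 27 of the 16732 transcripts had a higher ratio. At single sites the ratio was 12.4 (95% interval 7.04 to 23.7) at A66C, 19.7 (11.1 to 38.7) at A120G and 37.6 (20.2 to 79.0) at T966A, the intervals being exact for the ratio of 2 read counts. The hybrid tillering depths behind these ratios were 13, 12 and 10 reads.

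The parents of the hybrid moved apart in PDC1. R9308 was 2.69-fold higher at heading, with single sites from 1.69 to 4.93, and Xieqingzao B was 1.94-fold lower, with single sites from 1.26-fold to 3.50-fold lower. The lowest R9308 ratio, 1.69 (1.17 to 2.43) at T966A, was below 2. The ratio of R9308 to Xieqingzao B was 3.88 at heading, with single sites from 3.09 to 5.47. At tillering it was 0.744 and had no common direction over the sites, at 0.376 for A66C, 0.498 for A120G and 1.21 for T966A. Against the parental mean the hybrid was 1.99-fold lower at tillering and 7.69-fold higher at heading (log2 2.94), and the heading ratio at the 3 sites ran from 6.56 to 9.24. The tillering ratio was 0.734 at A66C, 0.722 at A120G and 0.283 at T966A, and 0.875 at T30A, so the mean of nearly 2-fold lower comes from T966A. At heading 25 of 16732 transcripts lay higher. A further site, A222C, was not called in the hybrid at tillering, and its heading depth in the hybrid was 9.05 times the parental mean.

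PDC2 was covered more evenly. Transcript 02 had a mean depth over 4 sites of 477.8 reads in Xieyou9308, 633.3 in R9308 and 637.8 in Xieqingzao B at the tillering stage, and of 530.3, 372.0 and 320.3 reads at heading. Both parents were lower at heading, 1.32-fold in R9308 and 2.40-fold in Xieqingzao B, and the hybrid differed little from its tillering level, with a log2 ratio of 0.13. The hybrid was 1.84 times the parental mean at heading and 1.05-fold below it at tillering, where single sites ran from 0.549 to 1.17. In transcript 01 a single site, A1052G, was read in all columns, with 108, 246 and 225 reads at tillering in Xieyou9308, R9308 and Xieqingzao B and 266, 120 and 164 at heading. There the hybrid was 2.43 times (1.94 to 3.07) its tillering level and 2.30 times the parental mean at heading. The same base is A1042G of transcript 02, where the hybrid stage ratio was 2.13 (1.69 to 2.72), whereas at T1318C it was 1.16 (1.02 to 1.32). At T1390C it was 1.28 (1.13 to 1.45), and at C1762T the hybrid was lower at heading, with a ratio of 0.852 (0.774 to 0.939). The ratio of PDC2 therefore depended on which of its sites was read, and quality scores at A1042G and A1052G went down to 8.64, against 141 or more at the other 3 sites.

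ADH1 was higher at heading in the hybrid and lower in both parents. Transcript 01 had a mean depth over 2 sites of 313.5 reads in Xieyou9308, 498.0 in R9308 and 588.0 in Xieqingzao B at the tillering stage. At heading it had 957.0, 271.5 and 253.0 reads. The hybrid was 3.01 times its tillering level, while R9308 was 1.42-fold and Xieqingzao B 2.81-fold lower. Transcript 02, with 3 sites, had 298.3, 426.7 and 511.0 reads at tillering and 818.3, 214.7 and 189.7 at heading, a stage ratio of 2.71 in the hybrid and a 1.54-fold and 3.25-fold lower depth in the parents. Each of the 5 sites, which are 3 distinct bases, gave the same directions in the 3 genotypes. At heading the hybrid was 4.41 times the parental mean in transcript 01 and 4.87 times in transcript 02, with single sites from 4.29 to 5.15, and 127 and 88 transcripts of 16732 lay higher. At G923A of transcript 02, which was not called in all 6 columns, the ratio was 2.07, and with it transcript 02 came to 4.15. The hybrid depth at G923A, 362 reads, was of the R9308 base A alone, while the Xieqingzao B reads in the parental mean were of G. At tillering the hybrid was 1.38-fold and 1.25-fold below the parental mean in transcripts 01 and 02. The quality score of these ADH1 sites was low for their depth, from 5.45 to 76, and none of the 5 rows reached 20 in every column.

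ADH2 had no site called in all 6 columns, but several sites were deeply read at heading. At T67A the hybrid had 218 reads at tillering and 1337 at heading, which is 22.6 and 136.6 RPM and a ratio of 6.05. R9308 had 564 and 1392 reads there, or 40.4 and 128.8 RPM, a ratio of 3.19. Xieqingzao B was called at that site at heading, with 647 reads or 49.2 RPM. At the other site called in the hybrid at both stages, G14C, near the start of the transcript, the hybrid had 26 and 91 reads and Xieqingzao B 41 and 43. The stage ratio there was 3.45 in the hybrid and 0.869 in Xieqingzao B. In R9308 the stage ratio was 2.91 at C1056G and 2.81 at C439G of transcript 02, which may be the same base. It was 1.21 at A150T, where R9308 showed 2 bases and the ratio is of their sum. There the reads of A went from 722 to 1751 and those of T from 1818 to 629. ADH2 thus had more depth at heading in the hybrid and in R9308, from 2.81-fold to 3.19-fold in R9308 at sites with a single base. ADH1 had less at heading in R9308. At C1056G R9308 exceeded Xieqingzao B 2.85-fold at heading, with 1805 against 769 reads, and at T67A 2.61-fold. ADH1 and ADH2 lie on chromosome 11 and encode similar proteins, and reads from similar stretches may be assigned to either locus. How the mapping divided such reads was not tested.

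**Figure D2:**
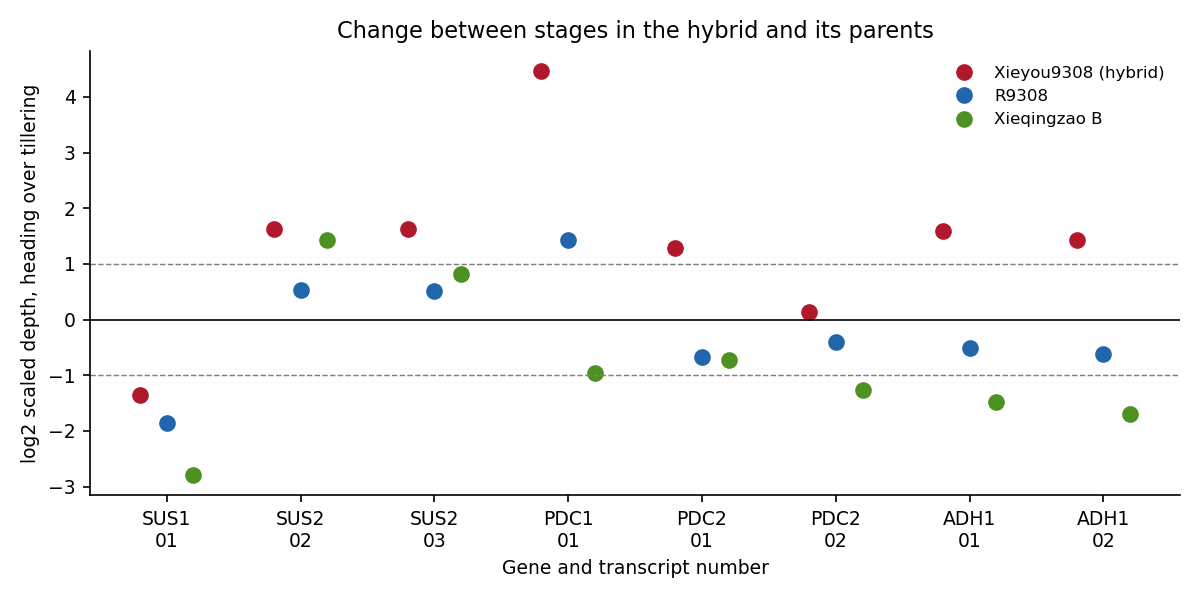
log2 ratio of scaled depth, heading over tillering, for the 8 transcripts in Xieyou9308, R9308 and Xieqingzao B, 1 point per pooled pair of columns and dashed lines at 2-fold. SUS1 is below 0 in all 3 genotypes, SUS2 above 0 in all 3, and ADH1 and PDC2 are above 0 in the hybrid and below 0 in both parents. The hybrid point of PDC2 transcript 02 is close to 0, at 0.13.

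Counted over the 8 transcripts, the stage comparison gave 6 at 2-fold or more higher and 1 lower at heading in Xieyou9308. Over all transcripts 15.9% were higher and 19.9% lower in that comparison. The 6 belonged to 4 loci, SUS2, PDC1, PDC2 and ADH1, and the lower transcript was SUS1. In R9308 the counts were 1 higher and 1 lower, with 7.67% and 18% of all transcripts. In Xieqingzao B they were 1 higher and 4 lower, with 9.49% and 14.9%, and the 4 lower transcripts belonged to SUS1, PDC2 and ADH1. The median log2 ratio of the 8 was 1.51 in the hybrid, -0.45 in R9308 and -1.11 in Xieqingzao B, while the median of all 16732 transcripts was -0.12, -0.14 and -0.03. Whether the stage ratios differed between genotypes was not tested, since each ratio comes from 1 pooled column per stage.

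R9308 was 2-fold or more higher than Xieqingzao B in 1 of 8 transcripts at tillering and in 1 of 8 at heading, and lower in 0 at both stages. The shares over all transcripts were 10.9% higher and 5.67% lower at tillering, and 13.2% higher and 12% lower at heading. The higher transcripts were SUS2 transcript 02 at tillering and PDC1 at heading, and 1 of 8 is near the shares over all transcripts. In 6 of the 8 transcripts R9308 was below Xieqingzao B at tillering, and in 7 of the 8 it was above at heading. These ratios average the sites called in all 6 columns. At A2732G and T2733C of SUS1, outside that set, the ratio at tillering was 0.0526 and 0.0452.

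Against the parental mean, Xieyou9308 was 2-fold or more higher in 0 and lower in 2 of the 8 transcripts at tillering, both of SUS2. Over all transcripts 12.6% were higher and 14.1% lower. At heading it was higher in 5 of the 8, which belonged to SUS1, PDC1, PDC2 and ADH1, and lower in 0, where 8.12% of all transcripts were higher and 5.25% lower. The median log2 ratio of the 8 moved from -0.62 at tillering to 1.23 at heading, beside 0.09 and 0.03 over all transcripts. Scaling by the totals of shared sites moved the last of these medians by -0.11. The 2 SUS2 transcripts stayed below the parental mean at heading, by 0.34 and 0.17 on the log2 scale. With a quality score of at least 20 required in all 6 columns, 4 transcripts remained and 2 of them, of SUS1 and PDC1, were 2-fold or more higher at heading.

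**Figure D3:**
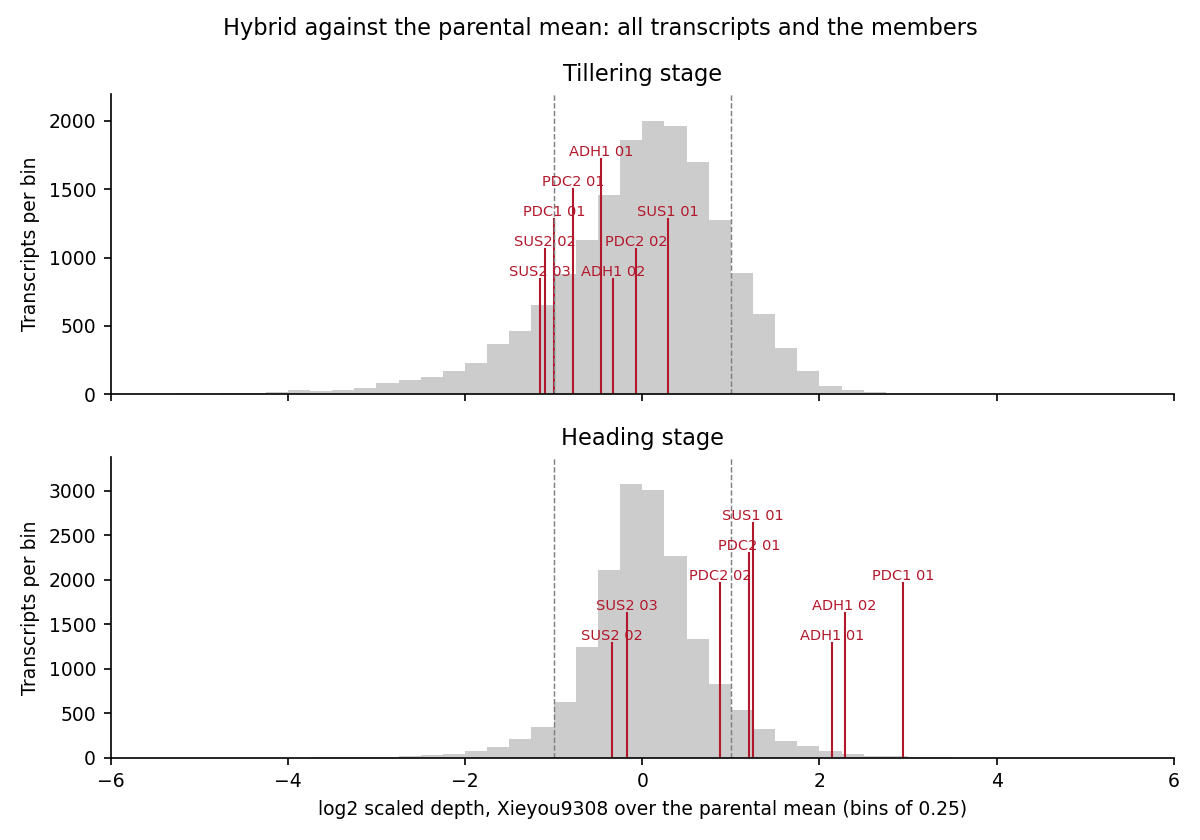
Number of transcripts (of 16732) by the log2 ratio of Xieyou9308 over the parental mean in bins of 0.25, at tillering above and at heading below, with red lines at the 8 transcripts and dashed lines at 2-fold. At tillering 7 of the 8 lines lie below 0, and at heading 6 lie above 0, with PDC1 at 2.94 and both ADH1 transcripts above 2.

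Where the parents carry different bases, reads of the hybrid can be assigned to the R9308 or the Xieqingzao B allele. Rows of the same base under several transcripts are counted separately here. Each parent had a single base, different from that of the other, at 15 member sites at tillering and 32 at heading. The hybrid showed both bases at 4 and 7 of them and had no call at 11 and 24, or 73.3% and 75%. Over the whole table the hybrid had no call at 26.4% and 28.6% of such sites. The members were thus poorer in hybrid allele reads than most of the table. Of the 95 member rows the hybrid had no call at 58.9% at tillering and 61.1% at heading, compared with 26.3% and 24.6% of all sites. For PDC1 the hybrid lacked a call at 1 of 5 rows at each stage, while for ADH1 and PDC2 it lacked one at 60.0% and 54.5%.

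The study's criteria ask for at least 10 reads in each parent, at least 20 in the hybrid and a quality score of at least 20, at both stages. They retained 9325 SNPs and 0 of them in the members. Applied to each stage alone, they retained 13829 SNPs at tillering, 1 of them a member SNP, and 17108 at heading, 5 of them member SNPs. The values below use these stage-specific sets. Allelic bias was called where a two-sided exact binomial test against equal shares gave a p below 0.01. The hybrid ratio was compared with the parental ratio by an exact conditional test, with parental depth scaled by the column totals, and was called at a Benjamini-Hochberg adjusted p below 0.05 over all retained SNPs of the stage. These exact tests count each read of a pooled column as independent. Their p-values therefore hold no spread between plants or libraries, also for the parental ratio.

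In PDC1 both alleles were read almost equally in the hybrid at heading, while the parents differed. At A66C there were 79 reads with the R9308 base A and 84 with the Xieqingzao B base C, an R9308 share of 48.5% (95% Wilson interval 40.9 to 56.1). At T966A there were 180 reads with the R9308 base T and 201 with A, a share of 47.2% (42.3 to 52.3). Neither departed from equal shares, with an exact binomial p of 0.754 and 0.306. The parents had 45 and 10 reads at A66C and 73 and 22 at T966A, so that R9308 held 84.5% and 80.1% of the parental scaled depth. The log2 ratio of the hybrid ratio to the parental ratio was -2.54 and -2.17, with adjusted p of 1.5e-05 and 5.0e-08 in the exact conditional test. In scaled depth, the R9308 allele in the hybrid was 1.94 and 2.72 times the whole R9308 parent, and the Xieqingzao B allele was 11.3 and 12.3 times the whole Xieqingzao B parent. At A222C, which failed the criteria because Xieqingzao B had 7 reads, the hybrid had 59 and 63 reads, a share of 48.4% (39.7 to 57.1). The excess of the hybrid over the parental mean at heading was thus present in reads of both alleles, and larger against Xieqingzao B.

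At tillering PDC1 had too few hybrid reads for the criteria. The R9308 share was 30.8% of 13 reads (12.7 to 57.6) at A66C, 40.0% of 10 reads (16.8 to 68.7) at T966A and 33.3% of 6 reads (9.68 to 70.0) at T30A. Both numbers of each of these pairs lie between 1 and 12, and their order could have been exchanged if a spreadsheet had read them as dates, so the direction at tillering is uncertain. With at least 10 hybrid reads at both stages, 11592 SNPs could be compared between stages, and 1.81% of them had a different share at an adjusted p below 0.05. The 2 PDC1 SNPs among them did not pass, with Fisher's exact p of 0.259 at A66C and 0.755 at T966A (adjusted p 0.813 and 1).

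In ADH2 the parental difference was also not found in the hybrid. At T67A, where R9308 carries A and Xieqingzao B the reference base T, the hybrid had 598 R9308 and 739 Xieqingzao B reads at heading, a share of 44.7% (42.1 to 47.4). This departed from equal shares toward Xieqingzao B (exact binomial p = 0.00013, adjusted p 0.0016). R9308 held 72.3% of the parental scaled depth, and the log2 ratio of the hybrid ratio to the parental ratio was -1.69 (adjusted p 3.3e-56, exact conditional test). At the 2 other ADH2 sites where the parents differed, C1056G and C439G, R9308 held 74.0% and 75.2% of the parental depth and the hybrid had no call. At tillering the hybrid had 127 reads with T and 91 with A at T67A, but Xieqingzao B had no call there, so no parental share could be formed.

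SUS1 gave smaller differences. At A22G the hybrid had 67 R9308 and 108 Xieqingzao B reads at heading, a share of 38.3% (31.4 to 45.7) that departed from equal shares (exact binomial p = 0.0024, adjusted p 0.017). At G42T, 20 bases on, it had 166 and 180 reads, a share of 48.0% (42.8 to 53.2) with an exact binomial p of 0.485. The 2 sites therefore gave different calls. R9308 held 50.3% and 59.1% of the parental depth, and the hybrid ratio differed from the parental ratio at G42T (adjusted p 0.024, exact conditional test) but did not pass at A22G (adjusted p 0.103). At tillering 1 SUS1 site passed, T301C of transcript 03, with 37 R9308 and 61 Xieqingzao B reads and a share of 37.8% (28.8 to 47.6). It missed the threshold for bias (exact binomial p = 0.020), and its parental share was 32.1%. At A22G the Xieqingzao B allele of the hybrid was 1.61 times the whole Xieqingzao B parent at heading and the R9308 allele 0.986 times the whole R9308 parent. At G42T these ratios were 1.62 and 1.04.

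Of the member SNPs, allelic bias toward R9308 was called in 0 of 1 at tillering and 0 of 5 at heading, where it was called in 10.1% and 11.3% of all retained SNPs. Bias toward Xieqingzao B was called in 0 of 1 and 2 of 5, beside 6.5% and 8.81%. At both called SNPs, A22G of SUS1 and T67A of ADH2, Xieqingzao B carries the Nipponbare base. It also does at G42T of SUS1, where no bias was called, and R9308 carries it at both PDC1 SNPs. The hybrid ratio differed from the parental ratio at 0 of 1 SNP at tillering and at 4 of 5 at heading, in SUS1, PDC1 and ADH2, beside 9.55% and 21.6% of all retained SNPs. When the spread of shares between SNPs was allowed for in a beta-binomial test, neither bias was called, with p of 0.157 at A22G of SUS1 and 0.476 at T67A of ADH2. In that test the ratio remained called in PDC1 (adjusted p 0.00013 and 0.00029) and ADH2 (0.0026) and was not called in SUS1 (0.40 at both sites). The spread allowed for was that between neighbouring SNPs of a transcript in the hybrid reads, not that between plants or libraries.

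**Figure D4:**
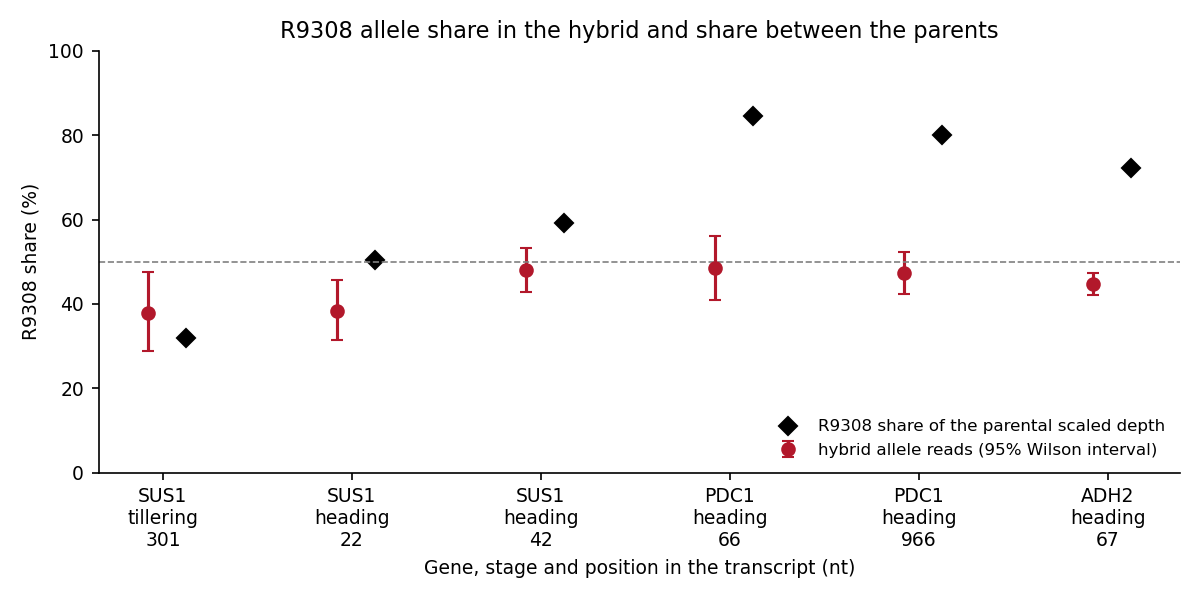
R9308 share of the hybrid allele reads (red, percent, with 95% Wilson intervals for counting error) and R9308 share of the parental scaled depth (black) at the 6 member SNPs that met the criteria at their stage, by position in the transcript. In PDC1 and ADH2 the parental share is 72.3% to 84.5% and the hybrid share 44.7% to 48.5%, whereas in SUS1 the points lie closer together.

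At sites where the parents differed, the remaining loci gave few or no hybrid alleles. In ADH1 the parents differed at 1 base listed in both transcripts, G1243A and G923A, where R9308 carries A. At heading the hybrid had no call at G1243A and 362 reads of A alone at G923A, with a quality score of 15.5. At T321C of transcript 02 the hybrid showed both bases. It had 56 reads of T and 79 of C at tillering, and 239 and 224 at heading. R9308 carried C there at both stages. The hybrid also showed 2 bases at G291A and T333G at tillering. Xieqingzao B had no call at any of these sites, so no parental share could be formed. In PDC2 the parents differed at 3 sites at each stage, R9308 held 38.9% to 43.2% of the parental depth at tillering and 55.5% to 61.5% at heading, and the hybrid had no call. In SUS2 they differed at 1 site at tillering and 12 at heading. Some of the PDC2 and SUS2 sites at heading are the same base listed under more than 1 transcript. The hybrid showed both bases at 1 of the SUS2 sites at heading, C2378T of transcript 01. It had 17 R9308 and 18 Xieqingzao B reads there, and its quality score was 18.1.

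Calls of 2 bases also occurred in the inbred parents, at a smaller share of member rows than of all sites. In R9308 they made up 14.7% of member rows at tillering and 9.47% at heading, beside 28.98% and 19.9% of all sites, and in Xieqingzao B 5.26% and 0%, beside 23.0% and 20.4%. The R9308 calls were concentrated in ADH1, at 35% of its rows at both stages, and in ADH2, at 63.6% at tillering and 9.09% at heading. In ADH1 R9308 showed 2 bases at 7 sites at both stages, with the second base in 48.4% to 62.3% of the reads at tillering and 36.2% to 52.5% at heading. Xieqingzao B and the hybrid had no call at any of these 7 sites. In ADH2 R9308 showed 2 bases at 7 sites at tillering and at 1 at heading, for example 722 reads of A and 1818 of T at A150T at tillering. At heading A150T had 1751 reads of A and 629 of T in R9308. Xieqingzao B showed 2 bases at 1 ADH2 site and 4 SUS2 sites at tillering and at 0 member sites at heading. SUS1 had 1 such site in R9308 at heading, with 7 reads. Such sites were not used to assign alleles. Of the 57 read pairs of the members, 5 have a form that a spreadsheet could have taken for a day and month, and a further 9 have both numbers between 1 and 12.

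Of 30 further loci listed with the pathway, 25 had a row and 24 transcripts of 21 loci had the depth for a ratio. The list held other sucrose synthases and pyruvate decarboxylases, invertases, hexokinases, fructokinases and UDP-glucose pyrophosphorylase. It also held cytosolic glyceraldehyde-3-phosphate dehydrogenases, mitochondrial aldehyde dehydrogenases, a class III alcohol dehydrogenase and haemoglobins. In the hybrid, 3 of the 24 were 2-fold or more higher and 8 lower at heading than at tillering. Over all transcripts the shares were 15.9% and 19.9%. The furthest of the 24 were Os04t0413500-01 at -3.32, Os02t0534400-01 at 2.19 and Os04t0249500-00 at -2.17 on the log2 scale. In R9308 the counts were 1 and 6, beside 7.67% and 18% of all transcripts. In Xieqingzao B they were 0 and 3, beside 9.49% and 14.9%. Against the parental mean, 7 were higher and 4 lower at tillering, beside 12.6% and 14.1% of all transcripts. At heading 0 were higher and 0 lower, beside 8.12% and 5.25%. The median log2 ratio of the list against the parental mean was 0.64 at tillering and 0.31 at heading. That of the 8 member transcripts was -0.62 and 1.23, and that of all transcripts 0.09 and 0.03. Both comparisons share the same columns, and the difference between the lists was not tested.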

How the data were processed

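Root mRNA of 12 samples was sequenced as paired-end reads. The authors aligned filtered reads to Nipponbare IRGSP build 5.0 with RSEM and called SNPs after pooling the roots of a group. The submitters' processing notes name CASAVA 1.8 and SAMtools 0.1.16. The deposited table holds the called bases, the supporting reads and the quality score for 6 pooled columns. The score is the value the authors' SNP caller wrote. The meaning of a missing call is not given in the sources used here, and the transcripts' sequences were not used here.

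From this table, depth was divided by each column total over all sites, which ran from 9661512 to 13973160 reads. A transcript's level is the mean over sites with a depth in all 6 columns, with a mean depth of at least 10 reads, and 2-fold was the call. Allele reads were tested with exact binomial, exact conditional and Fisher tests, with Benjamini-Hochberg adjustment over all SNPs retained. Intervals are 95% Wilson or exact intervals. Every member locus with a row was described, by a part of its sites. Of the other pathway loci at most 3 per comparison by the largest change were to be named. The members and lists were chosen with earlier results of these data known. A list of 64 other settings was drawn up at the start and 13 were added after seeing the data. The design fixed the SNPs retained at both stages as the main set. It held no member SNP, so the listed alternative, SNPs passing at 1 stage, is reported. The tests were checked on simulated reads. Figures were drawn with matplotlib 3.10.9, and statistics used scipy 1.17.1 with pandas 2.3.3 and numpy 2.4.6 under Python 3.11.15.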

Additional observations from a re-analysis of the deposited data

Results flagged for a closer look

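In ADH1 the stage ratios of Xieyou9308 and Xieqingzao B ran in opposite directions, both past 2-fold, while R9308 was lower at heading by less than 2-fold. In transcript 01 the log2 ratio of heading over tillering was 1.59 in Xieyou9308, -0.50 in R9308 and -1.49 in Xieqingzao B. In transcript 02 it was 1.44, -0.62 and -1.70 in the same order. The difference was not tested, because each genotype and stage is 1 pooled column, and the 2 transcripts share bases.

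Calls of 2 bases in the inbred line R9308 lie outside the allele comparison. In ADH1 there were 7 such sites at tillering and 7 at heading, and in ADH2 there were 7 at tillering and 1 at heading. Over all member rows such calls made up 14.7% and 9.47% in R9308, beside 28.98% and 19.9% of all sites. Within ADH1 the share was above that of all sites, at 35% at both stages. Within ADH2 it was 63.6% at tillering and 9.09% at heading. At the 7 ADH1 sites neither Xieqingzao B nor the hybrid had a call.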

How the results depend on the processing

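Counts of member transcripts past 2-fold were recomputed under 5 settings and 2 more chosen after seeing the data. Requiring a quality score of at least 20 in all 6 columns left 4 member transcripts, with 2 past 2-fold between stages in Xieqingzao B, 3 in Xieyou9308, 0 between the parents at tillering, and 1 and 2 for the hybrid against the parental mean at tillering and heading. Averaging all sites of a locus left 5 loci, with 3, 4, 0, 1 and 3 in the same order. Between the parents at tillering the count was also 0 with the best covered site only and with a mean depth of at least 50, which gave 1 for the hybrid at tillering. Using every site called in the columns compared gave 5 in R9308 between stages, and 2 and 3 between the parents at tillering and heading. Retaining SNPs at 1 stage alone gave 2 loci with allelic bias and 3 with a differing ratio at heading, against 0 in the set retained at both stages. The beta-binomial test gave 0 SNPs with bias at heading against 2. Of the recomputed counts 81 stayed within 1.5 times and 19 moved. Of 245 recomputed single ratios 239 kept their call, 3 lost it and 3 gained it. With the best covered site only, 3 log2 ratios under 2-fold changed sign: R9308 over Xieqingzao B at tillering in PDC1 from -0.43 to 0.28, and in PDC2 transcript 02 the stage ratio of the hybrid from 0.13 to -0.23 and the hybrid over the parental mean at tillering from -0.07 to 0.23. The PDC1 ratio of the hybrid to the parental mean at tillering, log2 -0.99, became -1.07 with the totals of shared sites.

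No paired analysis was possible because the 2 roots were pooled before SNP calling, so leaving out a replicate was not done. The low hybrid tillering depth of PDC1, 10 to 13 reads a site, limits its stage ratio. SUS1 rests on 1 site.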
